A study of Mus musculus with 9 samples.

Results

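The lungs of mice given bacterial lipopolysaccharide (LPS) and an inhaled aerosol of panaxadiol were compared with the lungs of saline controls by RNA sequencing. The comparison set 3 LPS plus PD libraries against 3 control libraries, 6 of the 9 libraries of the series, across the 16227 of 32114 genes in the deposited table whose mean over the 9 libraries was at least 0.5 FPKM. FPKM, the unit of all levels below, is a count of sequenced fragments divided by the length of the transcript and by the depth of the library. The LPS plus PD mice received LPS at 50 µg per mouse and inhaled PD at 10 mg/mL from an aerosol device. The LPS mice, which enter here for the shared estimate of the spread and as a second comparison, received the same amount of LPS without PD. The control mice received sterile saline. All mice were 12 weeks old. The labels write PD, taken here to be the panaxadiol that the title of the series names. The sources used here do not give the strain, how and when LPS was given, or when the lungs were taken. The design speaks of 6 animals per group. Nothing states that each library came from a separate animal. A p-value here sets the difference between groups against the spread of these libraries, and that spread may be technical. No group received PD without LPS, so the comparison with saline holds the effects of LPS and of PD together.

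Depth, read from the steps of the FPKM values, was between 16.4 and 19.2 M reads for LPS plus PD and between 15.2 and 17.3 M reads for the other 6 libraries. The tissue label held: the alveolar type 2 surfactant gene Sftpc was at 5442, 10066 and 10253 FPKM in the LPS plus PD libraries and at 9616, 6003 and 12360.3 FPKM in the control libraries, and the club cell secretoglobin Scgb1a1 was at 11227, 13404 and 21411 FPKM in LPS plus PD and 26078, 42381 and 22073 FPKM in control. The sex label did not hold. The labels give female mice, but Xist, which is transcribed from the inactive X chromosome of females, was at most 0.09 FPKM in all 9 libraries, and the Y-linked Ddx3y and Eif2s3y were at 15.4 to 31.9 and 16.5 to 28.5 FPKM. Across genes LPS replicate 2 correlated with no other library above 0.914, while each of the other 8 libraries reached at least 0.971 with another. Control replicate 2 had the largest share of its summed FPKM in mitochondrially encoded genes.

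LPS is the outer membrane lipid of Gram-negative bacteria. It is sensed by Toll-like receptor 4 on macrophages and epithelium, which switches on NF-kB, interferon regulatory factors and the genes of cytokines, chemokines and acute-phase proteins. In the lung this draws neutrophils and monocytes out of the blood into the airspaces and disturbs the epithelial barrier, and it is the usual way to model acute lung injury in mice. Panaxadiol is a triterpene sapogenin from ginseng.

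In the LPS plus PD lungs, genes of acute-phase proteins such as Saa3 and Lcn2, neutrophil genes such as S100a8 and Mmp8, chemokines such as Ccl9 and 4 MHC class I genes rose above control. Genes of the mitochondrial genome such as mt-Nd4l, the squamous gene Sprr1a, the keratin Krt8, the claudin Cldn4 and the cyclins Ccnb1 and Ccnd1 fell below it. The limma fit to log2(FPKM + 1) of all 9 libraries, at a Benjamini-Hochberg adjusted p of 0.05, called 128 of the 16227 genes, which is 0.789%. It called 61 genes higher (0.376%) and 67 lower (0.413%) in LPS plus PD. At least a 2-fold change on that scale was seen for 52 of the higher and 52 of the lower genes. Of the 128 genes 112 were protein-coding and 12 were pseudogenes, and in all 128 the 3 LPS plus PD libraries did not overlap the 3 control libraries. Libraries that did not overlap were common, in 5518 of the genes tested or 34.0%, with 13.3% higher and 20.7% lower in LPS plus PD. The median difference over all genes tested was -0.07 (log2).

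**Figure D1:**
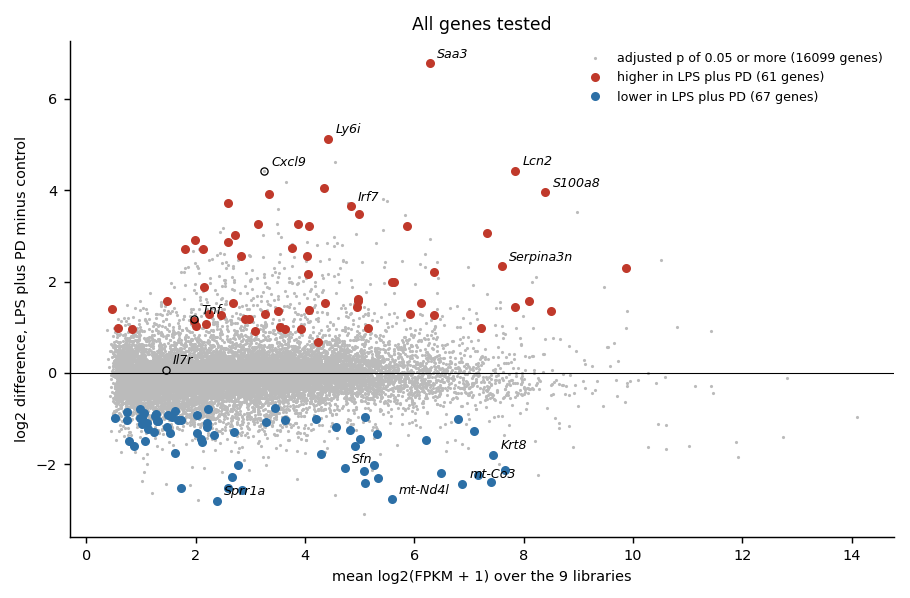
Each point is 1 of the 16227 genes tested, with its mean log2(FPKM + 1) over the 9 libraries on the horizontal axis and the log2 difference of LPS plus PD minus control on the vertical axis. The 61 genes called higher reach 6.78 (Saa3) and the 67 called lower reach -2.80 (Sprr1a), and open circles mark Cxcl9, Tnf and Il7r, which were not called.

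The number of calls depended on which libraries set the spread. A fit of the 6 libraries compared called 1193 genes (7.35%), 624 higher (3.85%) and 569 lower (3.51%), and a fit of 8 libraries without LPS replicate 2 called 1613 (9.94%), 757 higher and 856 lower. Both held all 128. Without LPS plus PD replicate 1, 2 or 3 the calls numbered 2, 12 and 5, and without control replicate 1, 2 or 3 they numbered 39, 16 and 41. Pla1a and Serpina3n were the 2 genes called without each library in turn. Setting the FPKM totals equal changed the split to 87 higher and 44 lower, and moved the median of all genes to 0.07. Gene lists are therefore described by their calls in the fit of 9 libraries and in the fit of the 6 libraries compared, beside the shares of all genes above.

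Acute-phase and host-defence genes were among the largest rises. Saa3, a serum amyloid A made by lung epithelium and macrophages (chr7:46711998-46715700), was at 504, 158 and 1128 FPKM in LPS plus PD replicates 1, 2 and 3, against 1.62, 4.98 and 3.36 FPKM in control replicates 1, 2 and 3. The groups were far apart, although the LPS plus PD libraries spanned a wide range among themselves. The difference was 6.78 ± 0.70 (log2 with its standard error, as for all differences below; limma adjusted p = 0.0176), and the call was lost when LPS plus PD replicate 1 was left out. Lcn2, which encodes the siderophore-binding lipocalin of neutrophils and epithelium (chr2:32384633-32388252), was at 854, 426 and 725 FPKM in LPS plus PD and 22.6, 37.4 and 28.1 FPKM in control, a rise of 4.43 ± 0.49 with an adjusted p of 0.0176 in limma. Saa1, whose reads may be shared with the near-identical Saa2, was at 10.6, 8.13 and 33.7 FPKM in LPS plus PD and 0.0719, 0.206 and 0.210 FPKM in control. Its lowest LPS plus PD library was far above its highest control library, and the rise was 3.73 ± 0.43.

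The rises of Serpina3n and Pla1a were smaller and were called without each library in turn. Serpina3n, a secreted serine protease inhibitor, was at 405, 297 and 288 FPKM in LPS plus PD and 61.6, 73.0 and 58.4 FPKM in control. It rose by 2.33 ± 0.18 on the log2 scale, with a limma adjusted p of 0.00578 that stayed between 6.05e-04 and 0.0446 when each library was left out. Its neighbours Serpina3m (1.88 ± 0.18) and Serpina3c (1.27 ± 0.22) and the transcribed pseudogene Serpina3h (3.21 ± 0.53) rose as well. These copies are alike in sequence and how reads shared between them were counted is not given, so their separate values are uncertain. Pla1a, a secreted phospholipase that acts on phosphatidylserine (chr16:38396119-38433145), was at 40.1, 22.0 and 33.3 FPKM in LPS plus PD and 1.66, 2.03 and 3.64 FPKM in control, a rise of 3.25 ± 0.26 with an adjusted p of 0.00578 in limma, and 9.47e-04 to 0.0447 when each library was left out. Slpi, an inhibitor of neutrophil elastase, was at 85.9, 81.2 and 67.9 FPKM in LPS plus PD and 26.9, 18.1 and 13.8 FPKM in control. It rose by 1.99 ± 0.26. Chil1, a secreted chitinase-like protein, was at 297, 275 and 381 FPKM in LPS plus PD and 29.9, 44.8 and 37.3 FPKM in control and rose by 3.06 ± 0.34. Serpina3n, its copies and Slpi were chosen after their values were seen.

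Of the acute-phase and secreted host-defence list, 18 of 21 members were tested, 6 rose and none fell, and the median difference was 1.35. The 6 were Saa3, Lcn2, Saa1, Serpina3n, Serpina3m and Lrg1, the last a glycoprotein of leucine-rich repeats at 119.6, 100.1 and 119 FPKM in LPS plus PD and 51.6, 47.6 and 40.0 FPKM in control. The fit of the 6 libraries called 10 higher and the fit without LPS replicate 2 called 11. Without LPS plus PD replicate 1, 2 or 3 the list kept 1, 5 and 3 calls, and without control replicates 1, 2 and 3 it held 6, 4 and 5. Hp, which encodes the haemoglobin-binding haptoglobin, is in the list and did not pass (-0.17, limma adjusted p = 0.778).

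**Figure D2:**
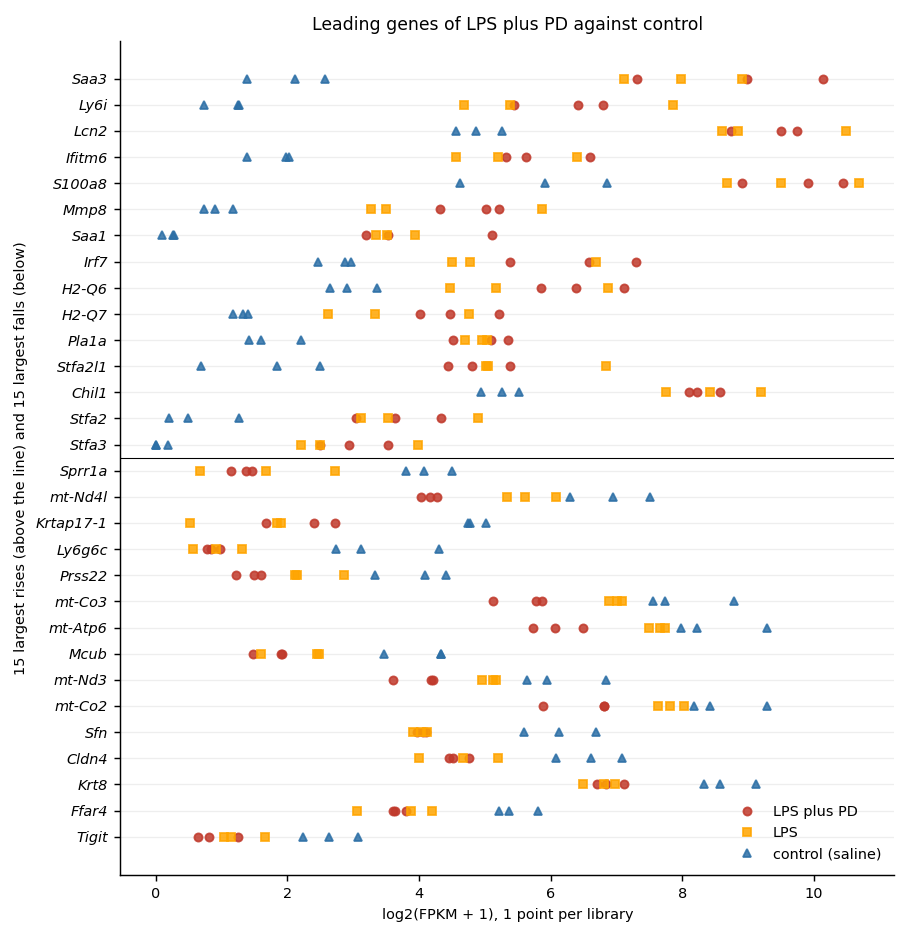
Each row is a gene and each point 1 library, at its log2(FPKM + 1), for the 15 largest rises above the line and the 15 largest falls below it. The LPS plus PD libraries lie to the right of all control libraries in the upper rows and to the left of them in the lower rows, and the squares show the LPS libraries that share in the spread.

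The mean of the neutrophil markers was higher in each LPS plus PD library than in any control library. S100a8, a subunit of the calcium-binding calprotectin that fills the neutrophil cytoplasm, was at 479.9, 962 and 1399.6 FPKM in LPS plus PD and 115, 23.6 and 59.6 FPKM in control, a rise of 3.96 ± 0.68 (limma adjusted p = 0.0416). Its partner S100a9 was at 635, 1030.5 and 2174 FPKM in LPS plus PD and 198, 40.5 and 112 FPKM in control, and its adjusted p of 0.0600 in limma missed the threshold. Mmp8, the neutrophil collagenase, was at 19.0, 36.4 and 31.5 FPKM in LPS plus PD and 1.27, 0.656 and 0.860 FPKM in control and rose by 3.92 ± 0.60. Mmp9, the gelatinase of neutrophil granules, was at 25.4, 25.7 and 29.8 FPKM in LPS plus PD and 4.23, 2.21 and 3.34 FPKM in control. It rose by 2.74 ± 0.33 with an adjusted p of 0.0206 in limma. The stefin A genes Stfa2l1 (3.21 ± 0.58), Stfa2 (3.02 ± 0.50) and Stfa3 (2.92 ± 0.44), cysteine protease inhibitors that lie in a cluster of close copies on chromosome 16, rose too, and Stfa3 was listed at 0 in control replicates 2 and 3.

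Of the 20 neutrophil markers, 4 rose in the fit of 9 libraries and 18 in the fit of the 6 compared, none fell, and the median difference was 2.47. The 2 members below control on average were Hdc and G0s2. In bulk tissue more cells of a type and more RNA per cell cannot be told apart. Without LPS plus PD replicate 1, 2 or 3 none of the 4 calls was left, and without LPS replicate 2 the count was 18. The granule genes of immature neutrophils were a separate list of 4 tested members with none called, in which Ngp was at 22.0, 24.8 and 26.0 FPKM in LPS plus PD and 1.51, 3.49 and 6.40 FPKM in control (limma adjusted p = 0.0561). Of the 16 markers of monocytes and recruited macrophages, Ly6i passed in the fit of 9 libraries and 12 passed in the fit of the 6 compared, all higher. Ly6i, a Ly6 surface protein gene with close relatives on chromosome 15, was at 110.1, 42.4 and 84.1 FPKM in LPS plus PD and 0.668, 1.38 and 1.40 FPKM in control, a difference of 5.13 ± 0.72. Ifitm6, an interferon-induced transmembrane gene of myeloid cells, was at 48.3, 39.2 and 96.5 FPKM in LPS plus PD and 3.08, 1.62 and 2.94 FPKM in control and rose by 4.05 ± 0.48.

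Most markers of resident cells of the alveolus were not called with 9 libraries, a fit that called 0.376% of all genes higher. Of 13 tested alveolar macrophage markers 1 rose, Atp6v0d2, a subunit of the vacuolar proton pump, at 13, 15.5 and 13.4 FPKM in LPS plus PD and 3.89, 5.44 and 6.08 FPKM in control (1.30 ± 0.16, limma adjusted p = 0.0258). The median of that list was 0.29, and the fit of the 6 libraries compared called 4 of its members higher, beside 3.85% of all genes. Marco, a scavenger receptor of these cells, was at 27.1, 19.8 and 50.9 FPKM in LPS plus PD and 4.44, 6.85 and 12.6 FPKM in control. It missed the threshold with 9 libraries (limma adjusted p = 0.0684) and passed with the 6 compared (0.0382). Of 13 alveolar type 2 markers 1 rose, Chil1, and the summed FPKM of the list spanned 8948 to 14648 in LPS plus PD and 8846 to 15337 in control. The surfactant gene Sftpc differed by -0.12 ± 0.60 with an adjusted p of 0.934 in limma, and its sign changed with the scaling. None of 11 alveolar type 1 and none of 17 lung endothelial markers passed in the fit of 9 libraries.

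Of 28 tested chemokine genes 26 had a positive difference and 4 rose. Ccl9, which attracts myeloid cells, had the smallest adjusted p of the 4 and was at 27.7, 25.1 and 28.8 FPKM in LPS plus PD and 5.01, 4.10 and 7.0 FPKM in control, a rise of 2.17 ± 0.20 (limma adjusted p = 0.0116). Cxcl3, a ligand of the neutrophil receptor CXCR2, was at 11.6, 2.80 and 9.01 FPKM in LPS plus PD and 0.170, 0.146 and 0.248 FPKM in control and rose by 2.72 ± 0.39. Ccl20 (2.86 ± 0.52), the ligand of CCR6, and Cxcl13 (2.57 ± 0.37), which attracts B cells, were the other two. The median of the list was 1.76, and the fit of the 6 libraries called 16 higher and none lower. Without LPS plus PD replicate 1, 2 or 3 the list held 0, 3 and 0 calls, and without each control replicate it held 1. Ccl9 was chosen after its values were seen.

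Several classical ligands did not pass with 9 libraries. Cxcl9, induced by interferon gamma, was at 80.5, 10.1 and 28.2 FPKM in LPS plus PD and 0.157, 0.908 and 0.231 FPKM in control, with LPS libraries at 2.32, 525 and 3.96 FPKM. No LPS plus PD library overlapped the controls, but LPS replicate 2 lay far above LPS replicates 1 and 3. Its limma adjusted p was 0.207 with all 9 libraries and 0.0119 with the 6 compared. Cxcl2, another CXCR2 ligand, showed the same arrangement at 9.74, 3.06 and 8.11 FPKM in LPS plus PD, 7.47, 93.7 and 7.30 FPKM in LPS and 0.144, 0.216 and 0.196 FPKM in control, with adjusted p-values of 0.155 and 0.00819 in those 2 limma fits. Cxcl9 and Cxcl2 were chosen after their values were seen.

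The cytokines of the series title and their receptors did not pass with 9 libraries, while Tnf and both of its receptor genes were called higher with the 6 compared. Tnf, the gene of tumour necrosis factor, was at 4.08, 1.52 and 1.81 FPKM in LPS plus PD, 3.18, 83.8 and 4.52 FPKM in LPS and 0.254, 0.660 and 0.530 FPKM in control. Each LPS plus PD library lay above each control library, at a low level, and the difference of 1.17 ± 0.97 had an adjusted p of 0.535 in limma with 9 libraries and 0.0480 with the 6 compared. Its receptor Tnfrsf1a, found on most cells, was at 101, 96.3 and 88.0 FPKM in LPS plus PD and 69.1, 57.2 and 62.6 FPKM in control (0.59 ± 0.15, limma adjusted p = 0.104, and 0.0394 with 6 libraries). The inducible receptor Tnfrsf1b was at 27.4, 16.4 and 26.1 FPKM in LPS plus PD and 9.30, 7.94 and 8.60 FPKM in control (1.31 ± 0.59, limma adjusted p = 0.267, and 0.0131 with 6 libraries). Il7, a survival factor for lymphocytes made by stromal and epithelial cells, was at 0.693, 0.720 and 0.671 FPKM in LPS plus PD and 0.933, 0.843 and 0.767 FPKM in control, and its receptor gene Il7r was at 1.27, 1.57 and 1.31 FPKM in LPS plus PD and 1.35, 0.833 and 1.70 FPKM in control. The Il7 libraries of LPS plus PD lay just below those of control, the Il7r libraries overlapped, and neither gene passed (limma adjusted p = 0.663 and 0.905).

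None of the 15 tested inflammatory cytokine genes was called with 9 libraries, and 7 were called higher with the 6 compared. Il1b, which encodes interleukin 1 beta, was at 25.3, 23.3 and 41.9 FPKM in LPS plus PD, 30.0, 458 and 27.7 FPKM in LPS and 3.86, 1.77 and 4.44 FPKM in control, with limma adjusted p-values of 0.160 and 0.00470 in those 2 fits. Il6 overlapped between the groups, at 1.19, 0.276 and 1.16 FPKM in LPS plus PD and 0.0734, 0.682 and 0.286 FPKM in control. Of the 26 genes of TNF and NF-kB signalling none was called with 9 libraries and 8 were called higher with the 6. Nfkbia, the NF-kB inhibitor that NF-kB itself induces, was at 186, 126 and 199.8 FPKM in LPS plus PD and 75.7, 77.9 and 78.8 FPKM in control. Among the 20 genes of endotoxin sensing and the inflammasome the counts were 0 and 6, with Gsdmd, the pore-forming gasdermin, at 37.8, 33.7 and 39.0 FPKM in LPS plus PD and 21.7, 17.5 and 22.7 FPKM in control. Il1b and Il6 were chosen after their values were seen.

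Interferon-stimulated genes were above control in 28 of 28 members by their means, with a median of 2.12. One passed with all 9 libraries, 21 with the 6 compared and 20 without LPS replicate 2. The one was Irf7, the transcription factor that amplifies type I interferon, at 156, 40.9 and 94.5 FPKM in LPS plus PD and 4.51, 6.81 and 6.35 FPKM in control, a rise of 3.65 ± 0.61 (limma adjusted p = 0.0393). Isg15, the ubiquitin-like interferon product, was at 133, 86.5 and 118 FPKM in LPS plus PD, 33, 421 and 24.5 FPKM in LPS and 13.7, 28.5 and 18.2 FPKM in control. The antiviral Rsad2 was at 10.9, 8.74 and 6.93 FPKM in LPS plus PD, 3.65, 162 and 4.84 FPKM in LPS and 1.73, 2.32 and 1.63 FPKM in control. Both lay above control in all LPS plus PD libraries, and LPS replicate 2 lay far above all other libraries. Their limma adjusted p-values were 0.194 and 0.422 with 9 libraries and 0.00513 and 0.00405 with 6. Isg15 and Rsad2 were chosen after their values were seen.

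Among the rises were 4 genes of MHC class I, the molecules that present peptides to cytotoxic T cells. H2-D1, a classical class I gene, was at 2903, 1375 and 1845 FPKM in LPS plus PD and 278, 457 and 497 FPKM in control, a rise of 2.29 ± 0.40 (limma adjusted p = 0.0468). The non-classical H2-Q6 was at 138, 57.2 and 82.8 FPKM in LPS plus PD and 5.27, 6.47 and 9.31 FPKM in control (3.49 ± 0.57), and H2-Q7 was at 36.1, 15.2 and 21.3 FPKM in LPS plus PD and 1.27, 1.51 and 1.64 FPKM in control (3.27 ± 0.50). H2-Q4 rose by 2.20 ± 0.39. LPS plus PD replicate 1 was the highest library for each of these. The H2 genes are close copies on chromosome 17 and reads may have been split between them, and H2-D1 and H2-Q4 were chosen after their values were seen.

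Further rises were spread over genes of several functions. Alox5ap, which hands arachidonic acid to 5-lipoxygenase for leukotriene synthesis, was at 24.7, 24.3 and 37.1 FPKM in LPS plus PD and 9.24, 8.70 and 9.47 FPKM in control (1.52 ± 0.22, limma adjusted p = 0.0313), and was the single member called of 11 tested prostaglandin and leukotriene enzymes, whose median was 0.28. Ltb4r1, the leukotriene B4 receptor of neutrophils, was at 4.26, 4.49 and 5.12 FPKM in LPS plus PD and 1.83, 0.868 and 1.33 FPKM in control (1.28 ± 0.22). Plat, the tissue plasminogen activator, rose by 1.0 ± 0.16 and was the single member called of 21 in the complement and coagulation list, of which the fit of 6 libraries called 9. F2r, the thrombin receptor PAR1, was at 94.7, 96.0 and 85.4 FPKM in LPS plus PD and 41.0, 24.9 and 30.0 FPKM in control (1.52 ± 0.20). Both collagen IV chains of basement membranes, encoded side by side on chromosome 8, rose. Col4a1 was at 449.9, 413 and 372 FPKM in LPS plus PD and 180.1, 97.1 and 147 FPKM in control (1.58 ± 0.23), and Col4a2 was at 379, 328 and 308 FPKM in LPS plus PD and 159, 87.7 and 135 FPKM in control (1.44 ± 0.23). Sema7a, a membrane-anchored semaphorin, rose by 1.99 ± 0.27, and Cebpd, a transcription factor of the acute-phase response, by 1.30 ± 0.22. Ltb4r1, F2r, the collagens, Sema7a and Cebpd were chosen after their values were seen.

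Other rises stood alone in their function. Vnn1, a pantetheinase that releases cysteamine, was at 20.1, 8.08 and 13.8 FPKM in LPS plus PD and 1.65, 1.40 and 1.20 FPKM in control (2.56 ± 0.34, limma adjusted p = 0.0287). Prok2, a secreted prokineticin of myeloid cells, was at 5.60, 3.17 and 12.8 FPKM in LPS plus PD and 0.279, 0 and 0.0604 FPKM in control (2.71 ± 0.44). Lpl, the lipoprotein lipase, was at 20.6, 27.9 and 16.6 FPKM in LPS plus PD and 9.15, 8.22 and 5.81 FPKM in control (1.37 ± 0.23). Cd302, a C-type lectin receptor of macrophages and dendritic cells, was within a narrow range in each group, at 50.4, 35.8 and 42.4 FPKM in LPS plus PD and 16.8, 14.6 and 13.7 FPKM in control (1.44 ± 0.21). Olfm4, an olfactomedin of neutrophil granules and epithelium, was at 3.14, 2.24 and 4.40 FPKM in LPS plus PD and 0.421, 0.387 and 0.372 FPKM in control (1.58 ± 0.25). These 5 were chosen after their values were seen.

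The 15 largest falls held Sprr1a, Krtap17-1, Ly6g6c, Prss22, Sfn, Cldn4 and Krt8, and the mitochondrially encoded mt-Nd4l, mt-Co3, mt-Atp6, mt-Nd3 and mt-Co2. They also held Ffar4, Tigit and a gene labelled Mcub, a label that was not checked. Sprr1a, a cross-linked envelope protein of squamous cells (chr3:92483952-92485895), was at 1.58, 1.21 and 1.75 FPKM in LPS plus PD and 13, 21.6 and 15.9 FPKM in control, a fall of 2.80 ± 0.44 on the log2 scale (limma adjusted p = 0.0352). Krtap17-1, a keratin-associated protein, was at 2.20, 4.32 and 5.61 FPKM in LPS plus PD and 31.3, 25.9 and 26.4 FPKM in control (-2.57 ± 0.39). Ly6g6c, a Ly6 surface protein, was at 0.718, 0.979 and 0.800 FPKM in LPS plus PD and 5.65, 18.7 and 7.67 FPKM in control (-2.51 ± 0.37). In Sprr1a and Ly6g6c control replicate 2 was the highest library. Prss22, a serine protease of airway epithelium, was at 1.83, 2.02 and 1.34 FPKM in LPS plus PD and 9.11, 16.1 and 20.4 FPKM in control (-2.51 ± 0.30). Sfn, the 14-3-3 sigma protein of stratified epithelia, was within a narrow range at 15.7, 16.2 and 14.7 FPKM in LPS plus PD, against 47.3, 102 and 68.9 FPKM in control. It fell by 2.09 ± 0.24, with an adjusted p of 0.0193 in limma. The gene labelled Mcub in the deposited data lies at chr5:91139599-91148432. This gene was at 1.80, 2.80 and 2.74 FPKM in LPS plus PD and 10.1, 19.3 and 19.1 FPKM in control (-2.27 ± 0.31, limma adjusted p = 0.0287). Whether that label fits the position was not checked, so no function is given for it.

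The keratin Krt8 fell. Of 12 tested claudin genes 4 fell and none rose with 9 libraries, beside 0.413% of all genes called lower. With the 6 compared 5 fell, beside 3.51%. The claudins were not one of the gene lists. Apart from Cldn4, the members called with 9 libraries were chosen after their values were seen, so these counts do not test the family. Krt8, found in simple epithelium, was at 103, 138 and 114 FPKM in LPS plus PD and 322, 556 and 379 FPKM in control (-1.79 ± 0.24, limma adjusted p = 0.0287). Its partner Krt18 was at 70.8, 74.1 and 71.9 FPKM in LPS plus PD and 158, 298 and 177 FPKM in control, with an adjusted p of 0.0584 in limma. Krt19 was at 132, 180.2 and 127 FPKM in LPS plus PD and 324, 502 and 316 FPKM in control (limma adjusted p = 0.0677), so both missed the threshold although their groups did not overlap. Cldn4, a tight-junction claudin, was at 20.9, 26.0 and 21.9 FPKM in LPS plus PD and 66.6, 135 and 97.1 FPKM in control (-2.02 ± 0.33). Cldn7 (-1.34 ± 0.22), Cldn23 (-1.19 ± 0.18) and Cldn2 (-1.03 ± 0.18) fell as well, and so did the basement-membrane anchor Lad1 (-1.35 ± 0.24), the membrane linker Ezr (-1.02 ± 0.18) and the surface glycoprotein Cd24a (-1.27 ± 0.20). Of the claudins that were not called, Cldn18 and Cldn5 had positive differences. Apart from Krt8 and Cldn4 these were chosen after their values were seen. Of 9 tested genes of the basal and squamous list 2 fell with 9 libraries, beside 0.413% of all genes called lower. With the 6 compared 4 fell, beside 3.51%. None rose, and the median was -1.48. The 2 were Sprr1a and Krt8, the latter a keratin found in simple epithelium. None of those 2 calls was left without LPS plus PD replicate 1, 2 or 3 or without control replicate 2. Among other lists of epithelium or its barrier the sign of the median differed. It was negative for the ciliated and for the club and secretory airway markers, described below. All 15 ciliated and all 11 club and secretory markers had a negative difference. Alveolar and barrier lists had positive medians. The alveolar type 2 markers had a median of 0.59 with 10 of 13 positive, the alveolar type 1 markers 0.56 with 8 of 11 positive, and the angiopoietin, VEGF and barrier list, which holds Cldn4, 0.30 with 11 of 14 positive.

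**Figure D3:**
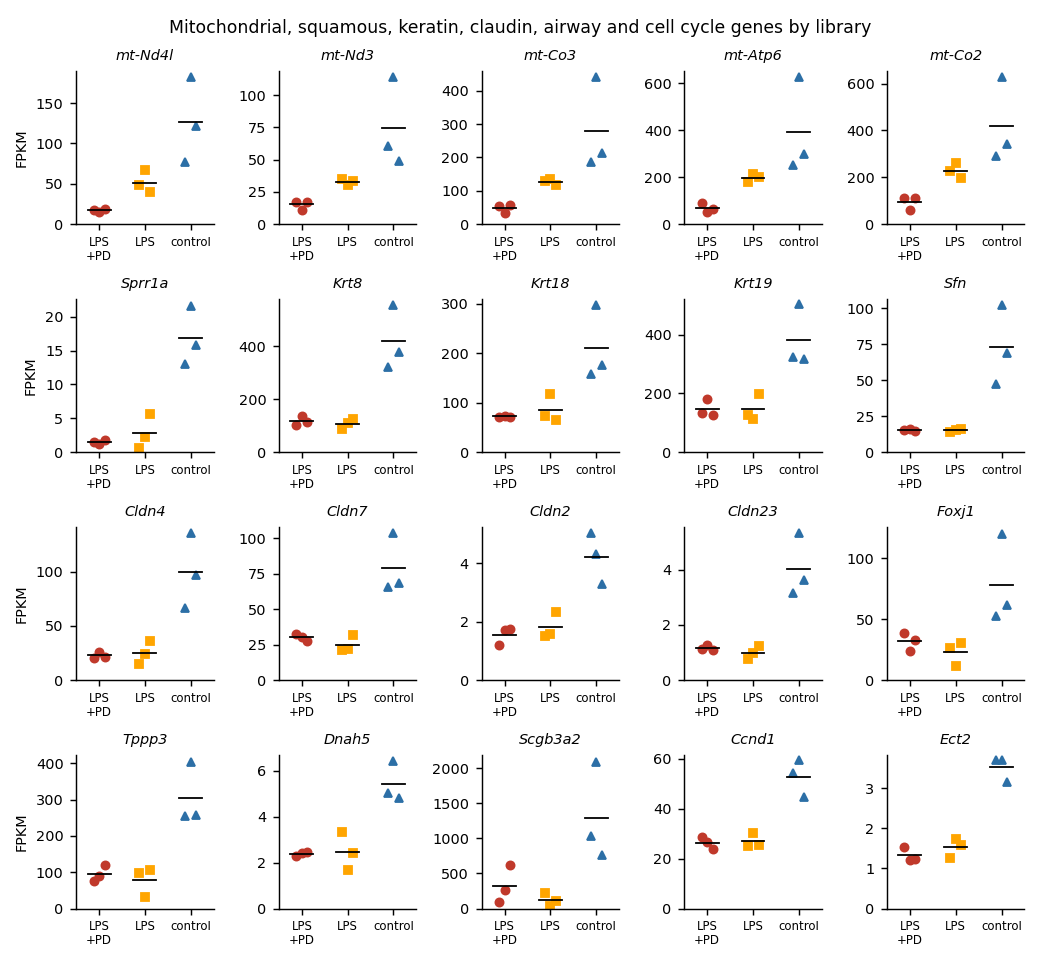
FPKM in each of the 9 libraries for 5 mitochondrially encoded genes, 13 squamous, keratin, claudin and airway genes and 2 cell cycle genes, with points for libraries, black bars for group means and an axis that starts at 0. The LPS plus PD libraries lie below all control libraries in every panel, and the mitochondrial genes of the LPS libraries lie between the LPS plus PD and control libraries.

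Ciliated and secretory airway genes were lower in the means but were not called with 9 libraries. All 15 ciliated cell markers had a lower mean in LPS plus PD, with a median of -1.06, and the fit of the 6 libraries called 5 of them lower. Dnah5, a motor of cilia, was at 2.27, 2.41 and 2.45 FPKM in LPS plus PD and 5.04, 6.44 and 4.80 FPKM in control (limma adjusted p = 0.0677, and 0.0119 with 6 libraries). Tppp3, a tubulin-binding gene of ciliated cells, was at 77.1, 90.8 and 119 FPKM in LPS plus PD and 254, 404 and 258 FPKM in control (limma adjusted p = 0.105, and 0.0120 with 6 libraries). Of 11 club and secretory markers the fit of 6 libraries called 2 lower. The secretoglobin Scgb3a2 spread widely, at 95.9, 260.0 and 628 FPKM in LPS plus PD and 1033, 2087 and 758 FPKM in control.

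Tissue other than lung epithelium also differed between libraries. The 12 heart muscle genes had a median of -1.50 with none called, and their summed FPKM spanned 213 to 279 in LPS plus PD, 95.2 to 164 in LPS and 309.7 to 1207 in control. The 8 adipocyte genes had a median of -0.93 with none called by the fit of 9 libraries, and spanned 16.1 to 39.5 FPKM in LPS plus PD, 7.80 to 23.7 in LPS and 23.7 to 195 in control. Whether the amounts of airway, heart and fat tissue in the pieces taken play a part in the falls of keratin, claudin and mitochondrial genes was not tested. None of the 7 smooth muscle and 19 fibroblast genes was called with 9 libraries.

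Mitochondrially encoded transcripts, which encode subunits of the respiratory chain and ATP synthase, were lower in LPS plus PD. Their share of the summed FPKM was 3.56%, 5.04% and 4.22% in LPS plus PD, 6.18%, 7.02% and 4.97% in LPS and 7.80%, 14.2% and 10.7% in control. All 13 had a negative difference, with a median of -1.67, and 5 fell with 9 libraries, 8 with the 6 compared and 11 without LPS replicate 2. mt-Nd4l (MT:9877-10173), a complex I subunit, was at 16.9, 15.4 and 18.4 FPKM in LPS plus PD, 48.0, 66.8 and 39.6 FPKM in LPS and 77.4, 182 and 122 FPKM in control, and fell by 2.76 ± 0.30 (limma adjusted p = 0.0176). mt-Co3, a cytochrome oxidase subunit, was at 54.2, 33.8 and 57.5 FPKM in LPS plus PD and 187, 440.3 and 213 FPKM in control (-2.43 ± 0.33), and mt-Atp6 of ATP synthase was at 89.1, 52.1 and 65.9 FPKM in LPS plus PD and 251, 624 and 298 FPKM in control (-2.40 ± 0.34). mt-Nd3 (-2.15 ± 0.30) and mt-Co2 (-2.12 ± 0.34) were the other two. None of the 5 calls was left without LPS plus PD replicate 1, 2 or 3, and 3, 4 and 2 were left without control replicates 1, 2 and 3.

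The most abundant mitochondrial transcripts did not pass. mt-Co1 was at 3655, 5243 and 4744 FPKM in LPS plus PD and 8162, 17172 and 12189 FPKM in control (-1.41, limma adjusted p = 0.113), and mt-Cytb at 1517, 3074 and 2425 FPKM in LPS plus PD and 5638, 11928 and 7786 FPKM in control (-1.84, limma adjusted p = 0.0727). The groups did not overlap in either gene. A further 4 pseudogenes on chromosome 1 that are copies of mitochondrial sequence were also called lower: Gm28439 (-2.42 ± 0.29), Gm10222 (-2.30 ± 0.30), Gm10925 (-2.23 ± 0.28) and Gm28437 (-2.19 ± 0.31). Every run of 31 bases in these 4 also occurs in the mitochondrial transcripts. In turn 98.9%, 99.9% and 99.5% of such runs of mt-Nd4l, mt-Co3 and mt-Atp6 occur in the 4 pseudogenes, and 0% of those of mt-Co1, mt-Cytb, mt-Nd3 and mt-Co2. Reads from both places cannot be told apart for the first 3, and how they were assigned is not given.

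The called cell cycle genes named here were lower in LPS plus PD. Of the 22 genes of cell division and DNA replication 1 fell with 9 libraries and 6 with the 6 compared, all 22 had a negative difference, and the median was -0.62. Those 2 fits called 0.413% and 3.51% of all genes lower. In 18 of the 22 the LPS plus PD libraries lay below the control libraries without overlap, as in 20.7% of all genes tested. Ccnb1, the mitotic cyclin B1, was at 1.19, 0.808 and 1.09 FPKM in LPS plus PD and 2.63, 3.02 and 2.79 FPKM in control (-0.91 ± 0.15, limma adjusted p = 0.0375). Ccnd1, cyclin D1 of the start of the cycle, was at 28.6, 26.7 and 23.7 FPKM in LPS plus PD and 54.4, 59.7 and 44.6 FPKM in control (-0.97 ± 0.15), and the cytokinesis genes Ect2 (-0.96 ± 0.14) and Anln (-1.03 ± 0.15) fell too. Mki67 and Cdk1 did not pass, with limma adjusted p-values of 0.421 and 0.0867. All but Ccnb1 were chosen after their values were seen.

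Other falls were in single genes of metabolism and immunity. Odc1, the first enzyme of polyamine synthesis, was at 19.0, 13.8 and 14.9 FPKM in LPS plus PD and 31.3, 38.4 and 42.4 FPKM in control (-1.18 ± 0.20, limma adjusted p = 0.0397). Cyp51, a demethylase of cholesterol synthesis, fell by 1.03 ± 0.18 and was the single call among 16 tested genes of that pathway, of which the fit of 6 libraries called 4 lower. Srxn1, an Nrf2 target that repairs peroxiredoxins, fell by 1.24 ± 0.22 and was the single call among 16 antioxidant genes, of which the fit of 6 libraries called 5 lower. Ffar4, a receptor for long-chain fatty acids, was at 11.5, 13 and 11.2 FPKM in LPS plus PD and 36.1, 54.9 and 40.3 FPKM in control (-1.78 ± 0.28). Tigit and Btla, which are inhibitory receptors of lymphocytes, fell, and other such receptors are not described here. Tigit was at 1.38, 0.569 and 0.757 FPKM in LPS plus PD and 3.70, 7.47 and 5.23 FPKM in control (-1.75 ± 0.27), and Btla was at 0.780, 1.79 and 1.52 FPKM in LPS plus PD and 3.83, 6.22 and 4.47 FPKM in control (-1.31 ± 0.21). T cell markers as a list had none called of 12 in either fit, and B cell markers had none of 8 with 9 libraries and 2 lower with the 6. Differences were negative in 11 of the 12 T cell markers (median -0.33) and in all 8 B cell markers (median -0.71). Btla was chosen after its values were seen.

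Some falls concerned genes at low levels. Akr1b7, an aldo-keto reductase, was at 0.586, 0.475 and 0.773 FPKM in LPS plus PD and 2.92, 4.62 and 3.26 FPKM in control (-1.50 ± 0.16, limma adjusted p = 0.0176). Aoc1, the diamine oxidase that degrades histamine, was at 1.93, 2.07 and 2.24 FPKM in LPS plus PD and 6.18, 10.5 and 7.15 FPKM in control (-1.51 ± 0.19). Cdsn, the corneodesmosin of cornified epithelium, was at 0.323, 0.136 and 0.156 FPKM in LPS plus PD and 1.49, 3.21 and 2.73 FPKM in control (-1.50 ± 0.21). The groups were apart in each, but a pseudocount of 1 shrinks such differences. Ckb, the brain-type creatine kinase, was more abundant, at 22.6, 20.0 and 26.8 FPKM in LPS plus PD and 63.8, 74.0 and 55.8 FPKM in control (-1.44 ± 0.24). Fhl2, an adaptor of muscle and epithelium, fell by 1.45 ± 0.24. These 5 were chosen after their values were seen.

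None of the 12 tested markers of natural killer and cytotoxic cells was called with 9 libraries, and 4 were called higher with the 6 compared. Gzmb, the granzyme B of killer cells, was at 26.9, 3.98 and 14.2 FPKM in LPS plus PD, 2.13, 17.7 and 9.29 FPKM in LPS and 0.868, 0.266 and 0.444 FPKM in control (limma adjusted p = 0.0916, and 0.0231 with 6 libraries). Gzma was at 99.2, 30.1 and 81.6 FPKM in LPS plus PD and 15.2, 6.65 and 12.2 FPKM in control (limma adjusted p = 0.113, and 0.0268 with 6 libraries). LPS plus PD replicate 2 was the lowest of its group for both granzymes. In the dendritic cell list Cd209a, a lectin of these cells, was at 0.0729, 0.576 and 0.0329 FPKM in LPS plus PD and 3.86, 2.05 and 4.61 FPKM in control, at the edge of the threshold (limma adjusted p = 0.0551).

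Hormone and clock genes gave more calls with the 6 libraries compared than with 9. Of 17 glucocorticoid-responsive genes Lcn2 was called with 9 libraries and 5 were called higher with the 6, and the median was 1.05. The fit of 6 called 3.85% of all genes higher. All 17 had a positive difference. In 13 of them the libraries did not overlap and LPS plus PD was higher, as in 13.3% of all genes tested. Fkbp5, a chaperone that the receptor induces, was at 8.22, 19.0 and 5.38 FPKM in LPS plus PD and 3.57, 3.59 and 5.26 FPKM in control and did not pass. Of 17 circadian genes none was called with 9 libraries, and the fit of 6 called 1 higher and 5 lower. Dbp, a clock-driven factor, was at 6.02, 7.24 and 10.2 FPKM in LPS plus PD and 21.1, 17.4 and 21.6 FPKM in control (limma adjusted p = 0.175, and 0.0121 with 6 libraries). The lists of ribosomal protein genes, ER stress and alveolar fluid channels and pumps had 0 calls in both fits. Fkbp5 and Dbp were chosen after their values were seen.

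The remaining lists gave the following counts, with 9 libraries first and the 6 compared second. Of 12 leukocyte adhesion genes 0 and then 7 were higher, with a median of 1.11, and Itgam, an integrin chain of myeloid cells, was at 11.3, 6.55 and 14.7 FPKM in LPS plus PD and 1.77, 1.44 and 2.18 FPKM in control. Of 15 metalloproteinases and their inhibitors 2 and then 4 were higher, and the 2 were Mmp8 and Mmp9, described above with the neutrophil genes. Of 8 nitric oxide, arginine and itaconate genes 1 was lower, and then 3 were higher and 2 lower. Of 14 genes of IL-7 signalling none was called, and then 2 were higher and 1 lower. Among 17 immediate early factors the counts were 0 and then 1 higher, among 11 tested prostaglandin and leukotriene enzymes 1 and 1 higher, and among 14 angiopoietin, VEGF and barrier genes 1 lower, and then 1 higher and 1 lower. None of the xenobiotic enzymes (23 tested), fatty acid synthesis (10), heat shock genes (10) and plasma cell genes (6) was called with 9 libraries, and 2 of each were lower with 6. In glycolysis (16 genes) 0, and then 1 higher and 1 lower, were called, and in the platelet list (7) and the dendritic list (12) 0 and then 1 lower. With 6 libraries 4 alveolar macrophage, 2 alveolar type 2 and 1 alveolar type 1 markers were higher, and of the fibroblast genes 2 were higher and 1 lower. Mast cell (4) and erythroid (7) genes had 0 calls in both fits. Beside these counts with 6 libraries stand the 3.85% of all genes called higher and the 3.51% called lower in that fit, and for small lists such as the plasma cell genes 2 calls are a larger share than that.

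**Figure D4:**
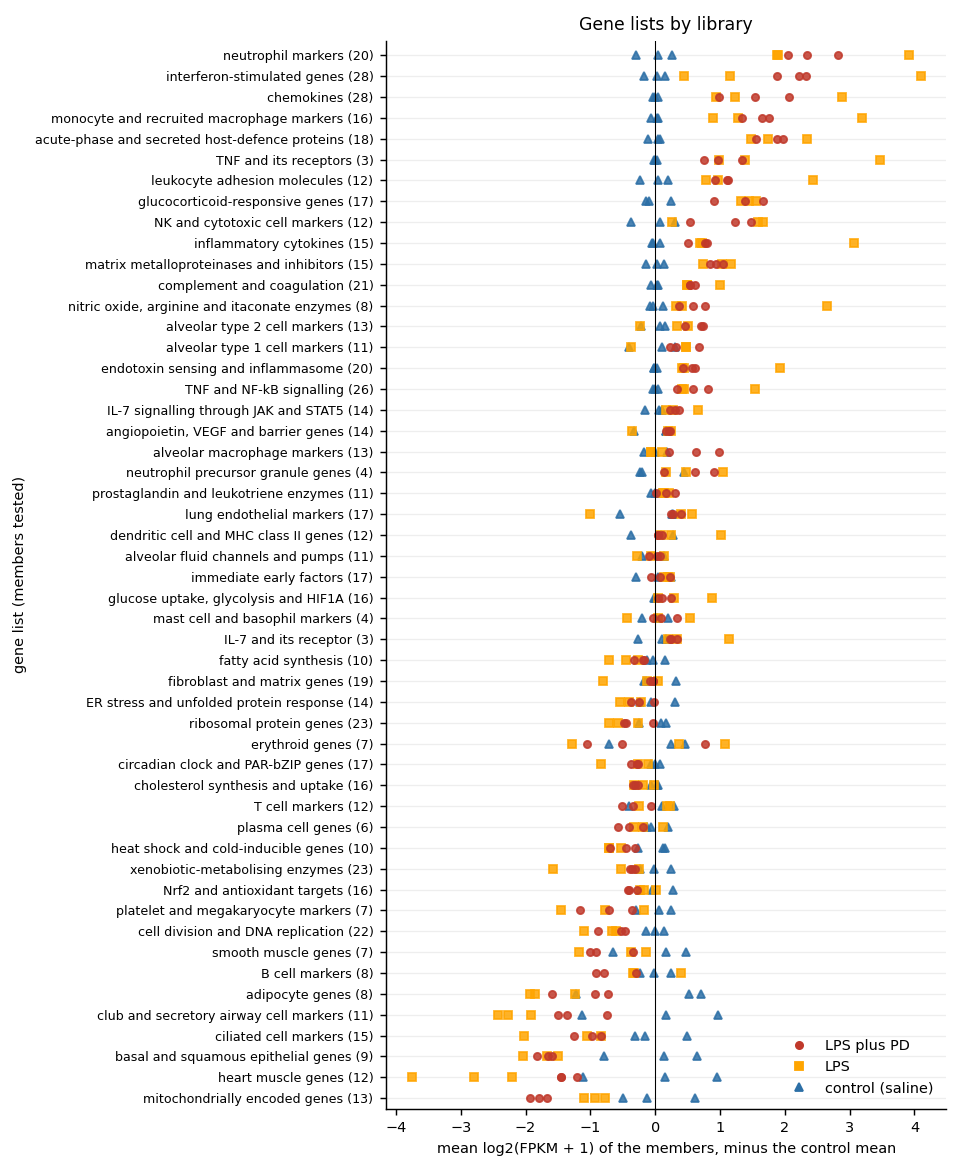
Each row is a gene list with its number of tested members, and each point is the mean log2(FPKM + 1) of the members in 1 library minus the mean of the control libraries. The LPS plus PD libraries lie right of all control libraries for neutrophil, interferon-stimulated, chemokine and acute-phase genes and left of them for mitochondrial, basal and ciliated genes, and LPS replicate 2 is the square furthest to the right in many upper rows.

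Promoters are shown for the genes whose transcripts moved furthest. They are the RefSeq windows of the GRCm38.p6 build from 250 bases before to 50 after the start, for the 3 largest rises and 3 largest falls with an entry. Capitals mark matches on either strand to GGGANTTTC (NF-kB), ACANNNTGT (glucocorticoid receptor), TTCNNNGAA (STAT), TTTCNNTTT (interferon response), TTGCGNAA (C/EBP), CACGTG (E-box) or TGANTCA (AP-1), and none of the matches overlap. The sequences run 5′ to 3′ on the strand of the gene.
Saa3 (chr7:46715627-46715926, minus strand): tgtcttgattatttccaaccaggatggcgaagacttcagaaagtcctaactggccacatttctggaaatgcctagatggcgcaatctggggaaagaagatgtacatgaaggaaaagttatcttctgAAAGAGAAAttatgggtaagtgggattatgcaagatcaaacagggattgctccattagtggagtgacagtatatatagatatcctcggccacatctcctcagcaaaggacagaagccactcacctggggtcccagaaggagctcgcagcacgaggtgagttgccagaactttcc
Lcn2 (chr2:32387690-32387989, minus strand): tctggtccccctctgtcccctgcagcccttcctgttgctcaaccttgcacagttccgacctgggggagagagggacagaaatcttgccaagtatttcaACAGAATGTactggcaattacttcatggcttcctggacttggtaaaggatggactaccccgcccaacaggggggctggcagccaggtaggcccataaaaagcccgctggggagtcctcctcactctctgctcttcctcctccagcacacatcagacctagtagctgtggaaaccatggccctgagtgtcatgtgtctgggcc
Ifitm6 (chr7:141016843-141017142, minus strand): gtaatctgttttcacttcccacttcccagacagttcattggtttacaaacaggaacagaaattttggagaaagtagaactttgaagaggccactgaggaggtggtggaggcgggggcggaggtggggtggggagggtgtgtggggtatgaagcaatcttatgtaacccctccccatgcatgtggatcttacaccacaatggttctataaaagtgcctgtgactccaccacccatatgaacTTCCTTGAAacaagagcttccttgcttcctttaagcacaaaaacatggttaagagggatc
Sprr1a (chr3:92485832-92486131, minus strand): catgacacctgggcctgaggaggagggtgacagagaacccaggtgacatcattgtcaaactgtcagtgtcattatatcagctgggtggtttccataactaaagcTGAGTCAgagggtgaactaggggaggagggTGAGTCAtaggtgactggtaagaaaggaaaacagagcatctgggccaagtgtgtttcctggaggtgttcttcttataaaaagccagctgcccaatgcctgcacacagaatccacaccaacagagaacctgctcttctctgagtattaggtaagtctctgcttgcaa
Krtap17-1 (chr11:99993945-99994244, minus strand): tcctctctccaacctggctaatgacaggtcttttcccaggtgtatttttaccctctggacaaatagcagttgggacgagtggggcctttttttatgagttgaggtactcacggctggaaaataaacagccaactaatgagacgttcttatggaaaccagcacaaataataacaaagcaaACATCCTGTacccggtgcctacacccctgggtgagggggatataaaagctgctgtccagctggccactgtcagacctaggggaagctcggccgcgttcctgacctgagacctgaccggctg
Ly6g6c (chr17:35067075-35067374, plus strand): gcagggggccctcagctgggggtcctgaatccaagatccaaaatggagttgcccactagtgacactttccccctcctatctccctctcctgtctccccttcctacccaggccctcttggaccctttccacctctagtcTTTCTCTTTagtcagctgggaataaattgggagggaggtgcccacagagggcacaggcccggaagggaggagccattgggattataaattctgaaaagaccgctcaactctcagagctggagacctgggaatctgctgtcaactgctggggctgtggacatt

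The Saa3 and Ly6g6c windows each held 1 match to the interferon response letters, which 10.7% of all 27025 promoters also held. Lcn2 and Krtap17-1 each held 1 match to the glucocorticoid receptor letters (6.9% of all promoters), and Ifitm6 held 1 to the STAT letters (8.47%). Sprr1a held 2 matches to the AP-1 letters, at 146 and 116 bases before the start, which 7.93% of all promoters held at least once. None of the 6 windows held the NF-kB (1.15%), C/EBP (0.807%) or E-box (7.24%) letters. A match is a stretch of letters and not a measured binding site.

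The test of LPS plus PD against LPS called no gene. It asked whether the difference from control was unlike that of LPS without PD, since the control cancels, and both comparisons share the LPS plus PD libraries. Of 16227 genes 0% passed in limma and 653 had an unadjusted p under 0.05. With median-ratio scaling and quantile normalization 1 gene passed, with array weights 2, and with voom 0. The smallest adjusted p was 0.132 for Gm24391, which was listed at 0 in all LPS plus PD and control libraries and at 2.35, 1.29 and 1.71 FPKM in LPS. P4ha3, a collagen prolyl hydroxylase subunit, was at 0.773, 0.291 and 0.499 FPKM in LPS plus PD, 1.87, 1.99 and 2.29 FPKM in LPS and 2.05, 2.70 and 1.77 FPKM in control, and fell against control by 1.06 ± 0.17 (limma adjusted p = 0.0352, and 0.811 against LPS). Gm25154, annotated as a ribosomal RNA gene, was at 0.970, 1.53 and 2.63 FPKM in LPS plus PD and listed at 0 in the 6 other libraries. Its values stood for only 2, 3 and 6 reads, and those of Gm24391 in LPS for 4, 2 and 3 reads. Both patterns therefore lie near the floor.

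The difference of LPS plus PD from LPS had standard errors that ranged widely among the leading genes. Saa3 was at 138, 478 and 253 FPKM in LPS replicates 1, 2 and 3, which overlaps LPS plus PD, and differed by 0.81 ± 0.70 (log2, standard error; limma adjusted p = 0.866). Lcn2, at 390.4, 1439.5 and 459 FPKM in LPS, differed by 0.01 ± 0.49, and Krt8, at 89.1, 111 and 125 FPKM in LPS, by 0.13 ± 0.24. mt-Nd4l differed by -1.52 ± 0.30 (limma adjusted p = 0.811), with every LPS plus PD library below every LPS library. These p-values miss the threshold and do not show that LPS plus PD and LPS lungs were alike.

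**Figure D5:**
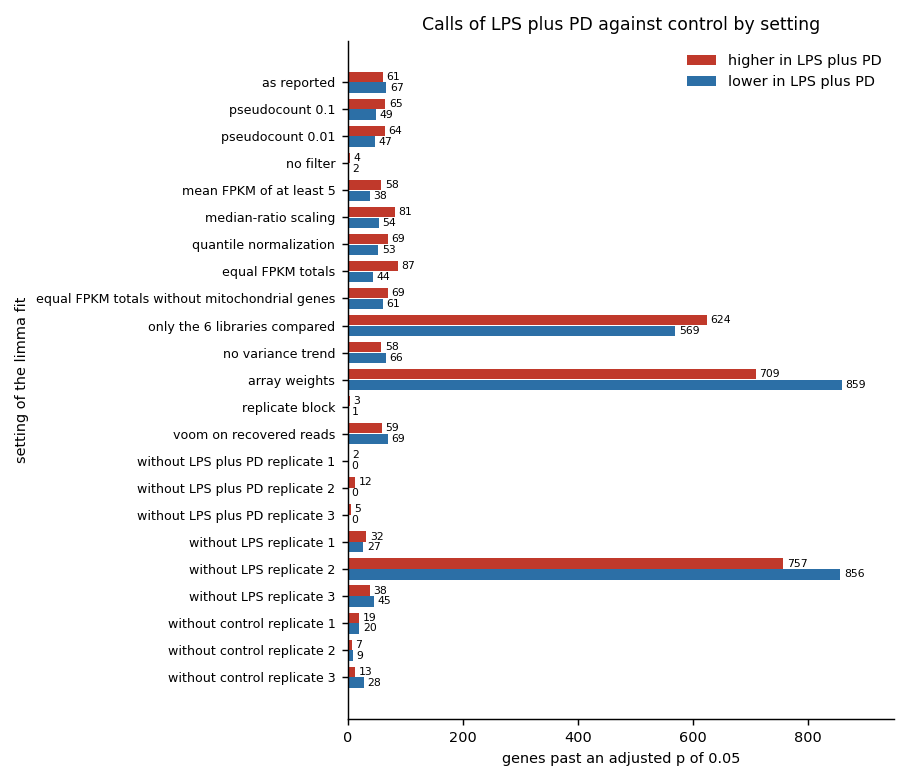
Bars give the number of genes called higher and lower in LPS plus PD than in control under each setting of the limma fit. The bars reach 859 with array weights and fall to 0 lower genes without any 1 of the LPS plus PD replicates.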

How the data were processed

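Polyadenylated lung RNA was sequenced in 9 libraries, per the labels. The authors deposited FPKM per gene and library in 1 table. The submitters' processing notes name the GRCm38 build and the tools HISAT2, StringTie, FastQC and bcl2fastq. The sources used here do not give their versions or settings, whether libraries were stranded, or how reads matching several places were counted. Columns were joined to samples by name, and 0 were left over. Of the identifiers 99.8% were in GENCODE M21. With its exon lengths the deposited FPKM values became whole reads, within 0.05, for 97.2% to 97.5% of values below 100 reads, which gave the depths. A low gene's FPKM rests on few reads, which limits its precision.

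Genes with a mean of at least 0.5 FPKM were tested on log2(FPKM + 1) in limma 3.58.1 (R 4.3.3), with 1 mean per group over all 9 libraries, a variance trend and two-sided moderated tests. P-values were Benjamini-Hochberg adjusted over 16227 genes. The median standard error was 0.198. The fit was also run on simulated data, drawn for each gene on its own with no library set apart. That run cannot speak to the part LPS replicate 2 plays in the spread. Python 3.11.15, pandas 2.3.3 and matplotlib 3.10.9 made tables and figures.

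The groups, the 52 gene lists and the naming rule were chosen with earlier results of these data known. The rule named the 15 largest rises and falls among called genes with separate groups of libraries, leaving out pseudogenes, predicted genes and antigen receptor segments, up to 3 called members of a list or else the 2 with the smallest p, the title genes, and the 5 smallest p against LPS. The text says where many of the genes outside this rule were picked by their values. Ccl9, Lrg1, S100a9, Marco, Scgb1a1, Sftpc and the pseudogenes on chromosome 1 were also picked after their values were seen. As alternatives the pseudocount was 0.1 or 0.01, the minimum mean 0 or 5 FPKM, and the fit used 4 scalings, the 6 libraries alone, no trend, voom on the recovered reads, array weights, a block for the replicate number, or all libraries but 1. A group left with 2 libraries is assumed to vary like the others. With 9 libraries LPS replicate 2 enters through the shared spread.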

Additional observations from a re-analysis of the deposited data

How the results depend on the processing

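The count of genes called in LPS plus PD against control was 128. It was 6 with no filter on low values (4 higher, 2 lower), 1193 with the 6 libraries compared (624 higher, 569 lower) and 1568 with array weights (709 higher, 859 lower), in which LPS replicate 2 had a weight of 0.155. A mean of at least 5 FPKM left 38 lower genes and equal FPKM totals 44, against 67. Leaving out 1 library gave 2 to 1613 calls, 2 to 757 higher and 0 to 856 lower. Voom on the recovered reads called 128 (59 higher, 69 lower). The pseudocounts, the other scalings and no variance trend gave 111 to 135 calls. Of the 30 leading genes none changed sign in any alternative.

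Same-numbered LPS plus PD and control libraries did not deviate together (correlations of -0.00, -0.11 and -0.01), so the numbers were not taken as pairs. With the replicate block 4 genes were called, 3 higher and 1 lower.

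LPS plus PD against LPS had 0 calls, and 1 with median-ratio scaling, 1 with quantile normalization and 2 with array weights.

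Genes that were not called changed sign in some settings. Sftpc was at 0.35 with quantile normalization, 0.06 with equal FPKM totals and -0.40 to 0.19 when 1 library was left out. Hbb-bs was at 0.05 with quantile normalization and -0.92 to 0.10 when 1 library was left out. Without 1 library Mcpt4 was at -0.22 to 0.02 and Il7r at -0.08 to 0.20, and Il7r was at -0.03 with array weights. Gm48583 was at 0.02 with equal FPKM totals. The causes were not tested.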
